A study of Mus musculus with 2 samples.

Results

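Heat shock proteins and their co-chaperones were examined as 1 group of genes in the intestinal muscle of Dnmt1 knockout mice. The group was taken by symbol, with no threshold on a measured value: it held every listed gene whose symbol starts with Hspa, Hspb, Hspd, Hspe, Hsph, Dnaja, Dnajb or Dnajc and a digit, or with Hsp90 and a letter, together with Hsf1, Hsf2, Bag3 and Stip1. This rule found 73 of the 18159 gene symbols with an expression value.

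Messenger RNA was sequenced from the jejunal tunica muscularis, the muscle coat of the small intestine peeled from its mucosa, at 15 days of age (P15), with 1 library for Dnmt1-WT and 1 for Dnmt1-KO mice. Both libraries came from mice on the C57BL/6 background that carried the transgene Tg(Myh11-cre,-EGFP)2Mik, which makes Cre recombinase and eGFP from the promoter of the smooth muscle myosin gene Myh11, so that loss of Dnmt1 was aimed at smooth muscle cells (SMC) and not at the other cells of the muscle coat. The labels give Dnmt1lox/lox as the strain, and a Dnmt1-/- description, for both libraries, and the genotypes used here are those of the titles and genotype labels. RNA came from several mice of both sexes for each genotype, and how it was combined is not stated in the sources used here. With 1 library for each genotype no difference has a replicate check, so each value below describes these 2 libraries and no p-value is given.

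Expression was given as FPKM, the fragments of a gene scaled by transcript length and by the mapped fragments of the library. Dnmt1 itself, the DNA methyltransferase that copies methylation marks after replication, had a level of 11.6 FPKM in Dnmt1-WT against 7.58 FPKM in Dnmt1-KO, a ratio of 0.655. This is a partial check of the labels, since the deletion removes a small stretch of the gene and cells outside the Myh11 lineage keep it. FPKM summed to 429698 and 460845 over all genes, and the table gives no read counts for single genes.

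The makeup of the tissue also differed between the libraries. All 10 smooth muscle markers were lower in Dnmt1-KO, with a median log2 ratio of -0.55 and a summed level of 17017 FPKM in Dnmt1-WT and 12273 FPKM in Dnmt1-KO, Smtn being lowest at a ratio of 0.427. The 8 leukocyte markers were all higher, from a sum of 58.5 to 244.4 FPKM, and the 8 adipocyte markers went from a sum of 137 to 1520 FPKM, with Lep listed at 0 in Dnmt1-WT. Summed levels were also higher in Dnmt1-KO for macrophages (138.6 and 492.9 FPKM), endothelium (46.3 and 106.5 FPKM) and enterocytes (278.4 and 622.8 FPKM). Of the 8 enterocyte markers 7 were higher and 1, Sis, was lower at 1.93 and 0.51 FPKM (ratio 0.264). The 12 immediate early genes, which tissue handling can induce, had a median log2 ratio of 0.14 and ranged from a ratio of 0.509 for Fos to 6.17 for Atf3. These values moved beside every result below and their part in them was not tested. In bulk tissue, fewer cells of a type and less RNA per cell cannot be told apart.

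Chaperones help proteins to fold, keep damaged proteins from clumping and pass proteins that cannot be refolded to degradation. HSP70 proteins grip and release unfolded stretches in a cycle driven by ATP, which J-domain proteins (the DNAJ families) start and nucleotide exchange factors such as HSP110 and BAG3 end, and STIP1 (also called HOP) passes clients from HSP70 to HSP90. Small heat shock proteins hold unfolded proteins without ATP and are abundant in muscle, where they bind the cytoskeleton and the contractile apparatus. When proteins unfold, the transcription factor HSF1 binds heat shock elements, inverted repeats of the letters GAA, in front of its target genes and switches them on.

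Such stretches are shown here for Hspa1a, Hspa1b and Hspb1, because these genes were among those with the highest ratios of the abundant chaperones, and for Hspe1, because it holds a long run of heat shock element letters. Hspb7, whose ratio of 2.21 was above the 2.13 of Hspb1, had no match in its window and is not shown. The sequences are RefSeq promoter windows of build GRCm38.p6, read 5′ to 3′ along each gene, with the matching letters in capitals. The window of Hspa1a is at chr17:34972157-34972306 (minus strand), that of Hspa1b at chr17:34959239-34959388 (minus strand) and that of Hspb1 at chr5:135887769-135887918 (plus strand), each being the 150 bases before the start. For Hspe1 only 30 bases at chr1:55088053-55088082 (plus strand) are printed, since annotated exons of Hspd1 cover this stretch.
Hspa1a: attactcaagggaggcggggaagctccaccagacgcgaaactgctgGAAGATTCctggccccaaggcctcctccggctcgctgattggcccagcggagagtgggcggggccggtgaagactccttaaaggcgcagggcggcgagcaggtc
Hspa1b: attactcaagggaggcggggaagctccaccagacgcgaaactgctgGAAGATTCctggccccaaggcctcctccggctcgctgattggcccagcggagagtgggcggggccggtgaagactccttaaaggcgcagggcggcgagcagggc
Hspb1: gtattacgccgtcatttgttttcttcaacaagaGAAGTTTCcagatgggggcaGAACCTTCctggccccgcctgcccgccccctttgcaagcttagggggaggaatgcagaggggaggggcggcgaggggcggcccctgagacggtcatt
Hspe1: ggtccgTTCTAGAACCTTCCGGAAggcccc

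Most chaperone genes differed little between the libraries, and a small set was much higher in Dnmt1-KO. Of the 73 members, 70 were above 0 FPKM in both libraries, 24 of them higher and 46 lower in Dnmt1-KO, with a median log2 ratio of -0.14 beside 0.01 over all 16102 genes above 0 in both. A ratio between 0.8 and 1.25 was found for 41 of the 70 members (58.6%) and for 45.1% of all genes, and at 10 FPKM or more in at least 1 library for 61.5% of members and 54.1% of genes. A ratio of 2 or more was reached by 5 members, Hspa1b, Hspa1a, Hspb7, Hspb1 and the barely expressed Dnajc22, which is 7.14% of members beside 11.8% of all genes. Dnajc28 alone was at 0.5 or less, 1.43% of members beside 4.98% of all genes. At the lower bar of a 1.5-fold difference, 7 members (10%) were higher beside 19.7% of all genes, and 6 members (8.57%) were lower beside 12.7%. At each of these bars the share of chaperone genes was below that of all genes above 0 in both. Among genes at 10 FPKM or more in at least 1 library, it was above at a ratio of 2 or more (7.69% beside 5.2%).

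**Figure D1:**
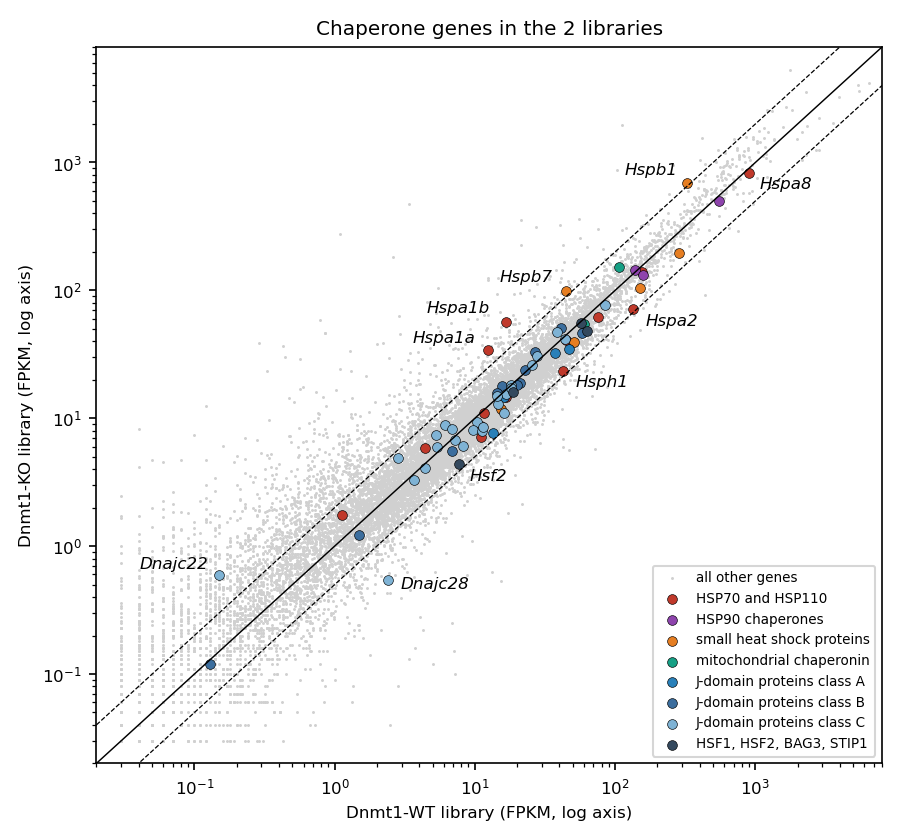
FPKM of each gene in the Dnmt1-WT library (horizontal, log axis) and the Dnmt1-KO library (vertical, log axis), with 1 point for each gene above 0 in both, grey for other genes and coloured by class for the 70 chaperone genes. The solid line marks equal values and the dashed lines ratios of 2 and 0.5, and most chaperones lie near the solid line while Hspa1a, Hspa1b, Hspb1 and Hspb7 lie above the upper dashed line.

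Low genes carry much of the spread in FPKM data, so the members were also read among abundant genes. With at least 10 FPKM in at least 1 library, 52 members remained beside 7054 genes, whose median log2 ratio was -0.03. Of these, 4 (7.69%) reached a ratio of 2 beside 5.2% of all such genes, and none was at 0.5 or less beside 2.93%. At a 1.5-fold difference 4 members were higher (7.69%, beside 11.2%) and 4 lower (7.69%, beside 10.3%). After division by the FPKM sum 4 were higher and 7 lower, with Hspb6, Hspb8 and Dnajc18 added. That division shifts all genes alike. Over all genes above 0 in both it took the share past 1.5-fold lower from 12.7% to 16.6%, and that past 1.5-fold higher from 19.7% to 17.2%. Of the lower genes, Dnaja4 and Hspa4l reached 10 FPKM in Dnmt1-WT alone. The 4 higher genes were the same ones as at 2-fold, so no abundant member lay between 1.5-fold and 2-fold higher.

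The total chaperone message was nearly equal in the libraries while its makeup shifted. Summed over the members, it was 4221 FPKM in Dnmt1-WT and 4281 FPKM in Dnmt1-KO, which is 0.982% and 0.929% of the FPKM of all genes. Hspb1 alone was 367.3 FPKM higher in Dnmt1-KO, and the sum without it was 3896 FPKM in Dnmt1-WT and 3589 FPKM in Dnmt1-KO, a ratio of 0.921. Hspb1 made up 7.69% of the chaperone message in Dnmt1-WT and 16.2% in Dnmt1-KO, and so passed Hsp90ab1 to become the second most abundant member. The 3 most abundant members, Hspa8, Hsp90ab1 and Hspb1, together held 42% and 47.2% of it.

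**Figure D2:**
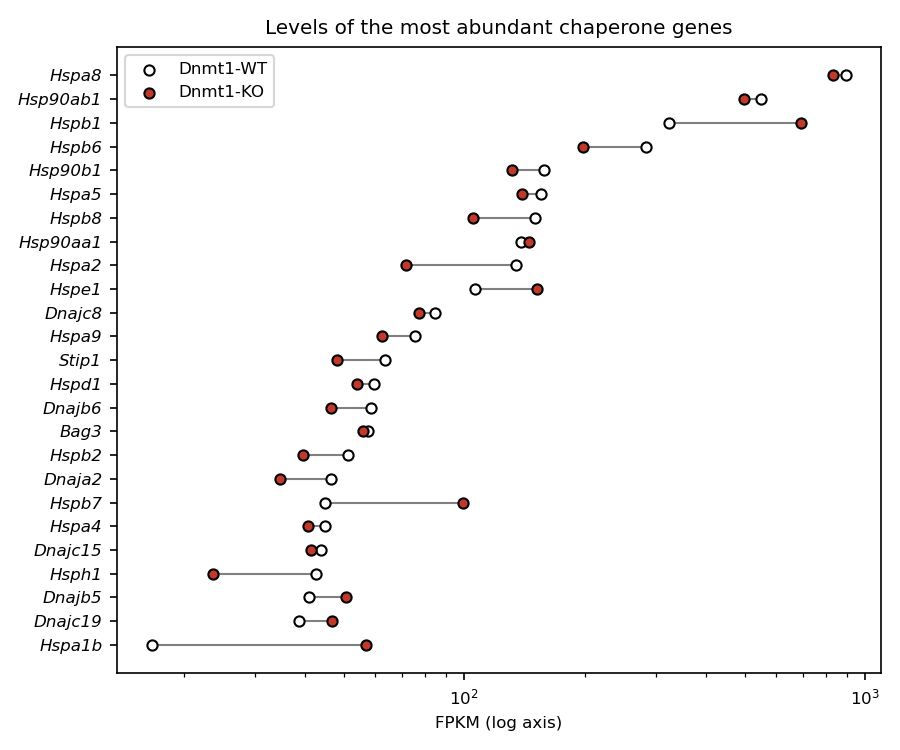
FPKM (log axis) of the chaperone genes with at least 40 FPKM in at least 1 library, ordered by their level in Dnmt1-WT, with open points for Dnmt1-WT, filled points for Dnmt1-KO and a line joining the 2 libraries. Hspb1, Hspb7, Hspe1 and Hspa1b lie to the right in Dnmt1-KO, while Hspa2, Hsph1, Hspb6 and Hspb8 lie to the left.

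The HSP70 class (14 genes, HSP110 relatives included) had 4 members higher and 10 lower, a median log2 ratio of -0.15, and a summed level of 1434.5 FPKM in Dnmt1-WT and 1309 FPKM in Dnmt1-KO. Over all 16102 genes above 0 in both, 8106 were higher and 7910 lower. The pair of classic stress-inducible HSP70 genes stood apart from the rest of its class. Hspa1b (chr17:34956436-34959238, minus strand, GRCm38) was at 16.6 FPKM in Dnmt1-WT and 56.9 FPKM in Dnmt1-KO, a ratio of 3.42 and a log2 ratio of 1.78. Hspa1a (chr17:34969190-34972156, minus strand) was at 12.4 and 34.5 FPKM, a ratio of 2.79 and a log2 ratio of 1.48. Among the 7054 abundant genes these were the 143rd and 193rd highest ratios. The transcripts of this pair are nearly alike, with 58.8% of all 50-base words of Hspa1a also found in Hspa1b, so the split of reads between them is uncertain, and their sum was 29.0 FPKM in Dnmt1-WT and 91.3 FPKM in Dnmt1-KO (ratio 3.15). Their promoters are alike too: over the 250 bases before the start, 247 were the same and the differences from Hspa1a to Hspa1b, counted from 1 at the 5′ end of that window, were C44T, T47C and T249G.

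The genes around this locus had lower ratios than Hspa1a and Hspa1b, some of them above 1 and some close to 1. Hspa1l, an HSP70 gene best known from the testis that begins 547 bases from Hspa1a and runs the other way, was at 1.13 and 1.75 FPKM (ratio 1.55). Lsm2, which encodes an RNA-binding protein of the splicing machinery and lies 9706 bases from Hspa1a, was at 23.64 and 23.96 FPKM (ratio 1.01). Neu1, a lysosomal sialidase gene on the other side of the cluster, was at 7.96 and 10.8 FPKM (ratio 1.36). The low-level Slc44a4 beyond Neu1 was at 2.42 and 4.68 FPKM (ratio 1.93), and Vars, beyond Lsm2, at 17.7 and 17.2 FPKM (ratio 0.971).

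The constitutive HSP70 genes were close to equal and slightly lower in Dnmt1-KO. Hspa8, which encodes the HSP70 protein of unstressed cytosol, was the most abundant member in both libraries at 897 and 831 FPKM (ratio 0.926). It shares 73.2% of its 50-base words with other annotated genes, mostly pseudogenes, so its own level is uncertain. The level of Hspa8 was 54 times that of Hspa1b in Dnmt1-WT and 14.6 times in Dnmt1-KO. Hspa5, which encodes BiP of the endoplasmic reticulum (ER), was at 155 and 139 FPKM (ratio 0.897). Hspa9, which encodes mortalin of the mitochondrial matrix, was at 75.2 and 62.4 FPKM (ratio 0.83).

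The lowest ratios of the class were those of Hspa2, Hsph1 and Hspa4l. Hspa2 (chr12:76404176-76406938, plus strand), an HSP70 gene known for its need in sperm formation, was at 134 FPKM in Dnmt1-WT and 71.6 FPKM in Dnmt1-KO, a ratio of 0.533. Hsph1 (chr5:149614287-149636376, minus strand), which encodes the heat-inducible nucleotide exchange factor HSP105, was at 42.6 and 23.6 FPKM, a ratio of 0.554. Its relative Hspa4l was at 11.0 and 7.19 FPKM (ratio 0.652), while Hspa4, the constitutive HSP110 gene, was at 44.9 and 40.7 FPKM (ratio 0.907). Hsph1 and Hspa1a, both heat-inducible HSF1 targets, lay on opposite sides of 1. The level of Hspa1a relative to Hsph1 was 0.29 in Dnmt1-WT and 1.46 in Dnmt1-KO, and HSF1 activity was not tested. The remaining HSP70 relatives above 10 FPKM, Hspa12a, Hspa13 and Hspa14, had ratios from 0.787 to 0.936.

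**Figure D3:**
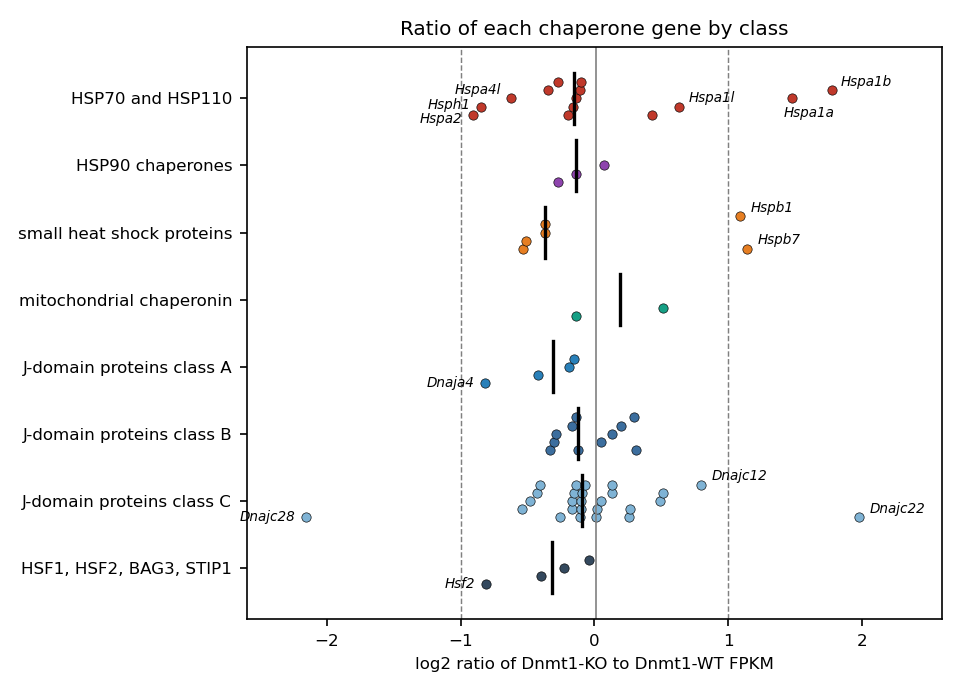
Log2 ratio of Dnmt1-KO to Dnmt1-WT FPKM for each of the 70 chaperone genes above 0 in both libraries, 1 point per gene by class, with the class median as a black bar, the all-gene median (0.01) as a grey line and 2-fold differences as dashed lines. Genes at least 1.5-fold apart are named, and only the HSP70, small heat shock protein and class C J-domain groups reach past a dashed line.

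The 3 HSP90 genes differed little. Hsp90ab1, the constitutive cytosolic form, was at 549 and 497 FPKM (ratio 0.905), and Hsp90b1, the ER form also called GRP94, was at 158 and 131 FPKM (ratio 0.828). Hsp90aa1, the stress-inducible cytosolic form, was at 138 and 145 FPKM (ratio 1.05, log2 0.07), a direction that turned to a log2 ratio of -0.04 when each library was divided by its FPKM sum. Its level relative to Hsp90ab1 was 0.252 in Dnmt1-WT and 0.291 in Dnmt1-KO. Hsp90aa1 shares 58.5% of its 50-base words with other annotated genes.

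Small heat shock protein genes, grouped by symbol with Hspb11 in and Cryab out, were split. Of the 6 genes above 0 in both libraries, 2 were more than 2-fold higher in Dnmt1-KO and 4 were lower, so the class had a median log2 ratio of -0.37 while its summed level was 871 FPKM in Dnmt1-WT and 1145 FPKM in Dnmt1-KO. Hspb1 (chr5:135887919-135889563, plus strand), which encodes HSP25, an actin-binding protein that is phosphorylated in contracting smooth muscle, was at 325 FPKM in Dnmt1-WT and 692 FPKM in Dnmt1-KO, a ratio of 2.13 that came just under 2-fold (log2 0.99) when each library was divided by its FPKM sum. Without that division it was the only one of the 9 members with a geometric mean of at least 100 FPKM to reach a ratio of 2, beside 4.17% of the 648 genes at that level. Of its 50-base words, 51.6% are also in the pseudogene Hsp25-ps1, so its own level is uncertain too. Hspb7 (chr4:141420779-141425311, plus strand), a small heat shock protein gene of heart and other muscle, was at 44.9 and 99.3 FPKM (ratio 2.21) and shares only 0.407% of its words with other genes.

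Hspb6, Hspb8 and Hspb2 were lower in Dnmt1-KO. Hspb6, which encodes HSP20, a protein whose phosphorylation accompanies smooth muscle relaxation, was at 284 and 197 FPKM (ratio 0.694). Hspb8, which encodes the partner of BAG3 in chaperone-assisted autophagy, was at 150.3 and 105 FPKM (ratio 0.7). Hspb2 was at 51.2 and 39.6 FPKM (ratio 0.773). The level of Hspb1 was 1.14 times that of Hspb6 in Dnmt1-WT and 3.51 times in Dnmt1-KO.

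Cryab, the αB-crystallin gene, is a small heat shock protein gene by structure that the symbol rule does not take, and it gave equal values of 259.5 and 260.3 FPKM. It lies head to head with Hspb2 and the annotated genes overlap, so reads in the overlap cannot be assigned without strand. The level of Hspb1 relative to Cryab was 1.25 in Dnmt1-WT and 2.66 in Dnmt1-KO. Hspb11, placed in this class by its symbol, encodes a protein of intraflagellar transport and was at 15.3 and 11.8 FPKM (ratio 0.771). Hspb3 was listed at 0.09 and 0 FPKM, and Hspb9 at 0 and 0.15 FPKM.

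The mitochondrial chaperonin has a large subunit, HSP60 (Hspd1), and a lid, HSP10 (Hspe1), whose genes lie head to head on chromosome 1. Hspe1 (chr1:55088132-55091307, plus strand) was at 106 FPKM in Dnmt1-WT and 152 FPKM in Dnmt1-KO, a ratio of 1.43. Hspd1 (chr1:55077835-55088243, minus strand) was at 59.6 and 54.2 FPKM, a ratio of 0.908. The lid message was thus 1.78 times that of the large subunit in Dnmt1-WT and 2.8 times in Dnmt1-KO. By the coordinates given here the annotated genes overlap at their starts, so reads in the overlap cannot be assigned without strand. Both have processed pseudogenes, and 44.8% of the words of Hspd1 and 36.1% of those of Hspe1 are also in other annotated genes.

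J-domain proteins, which choose the clients of HSP70, were the most numerous group, with 42 genes, 41 above 0 in both libraries, 16 of these higher and 25 lower, a median log2 ratio of -0.11 and 37 within 1.5-fold. Of all 16102 genes above 0 in both, 8106 were higher and 7910 lower, and 10889 were within 1.5-fold. The 4 class A genes, the closest relatives of bacterial DnaJ, were all lower. Dnaja2 was at 46.5 and 34.8 FPKM (ratio 0.747), Dnaja1 at 37.3 and 32.6 FPKM (ratio 0.874) and the mitochondrial Dnaja3 at 16.2 and 14.6 FPKM (ratio 0.901). Dnaja4 was lowest of the 4 at 13.5 and 7.61 FPKM (ratio 0.566).

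Class B held no gene past 1.5-fold. Dnajb1, the heat-inducible HSP40 and main partner of HSPA1A, was at 15.6 FPKM in Dnmt1-WT and 17.9 FPKM in Dnmt1-KO (ratio 1.15). Dnajb6, which encodes a suppressor of protein aggregation mutated in a limb-girdle muscular dystrophy, was the most abundant in Dnmt1-WT at 58.5 FPKM and was at 46.4 FPKM in Dnmt1-KO (ratio 0.794). Of the 50-base words of Dnajb6, 35.8% are also in other annotated genes, so its level and rank are uncertain. Dnajb5 was at 41.0 and 50.6 FPKM (ratio 1.23), which made it the most abundant class B gene in Dnmt1-KO. Dnajb4 was at 22.9 and 23.7 FPKM (log2 0.05, or -0.05 when each library was divided by its FPKM sum).

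Class C genes hold the J domain in otherwise unlike proteins, and 23 of the 26 were within 1.5-fold. Dnajc8, which encodes a protein of the spliceosome, led the class at 84.8 and 76.9 FPKM (ratio 0.907). Dnajc5, the cysteine string protein gene of secretory vesicles, was at 25.7 and 26.0 FPKM (log2 0.02, or -0.08 after division by the FPKM sum). Dnajc18 was at 16 and 11.0 FPKM (ratio 0.69), and Dnajc21, a gene of ribosome assembly, at 11.2 and 7.98 FPKM (ratio 0.716). The genes past 1.5-fold were all low: Dnajc12, whose product attends the aromatic amino acid hydroxylases, was at 2.82 and 4.9 FPKM (ratio 1.74), Dnajc28 at 2.42 and 0.54 FPKM (ratio 0.223) and Dnajc22 at 0.15 and 0.59 FPKM (ratio 3.93). The log2 ratio of Dnajc28 was -2.16, or -1.15 with a pseudocount of 1.

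The regulators and connecting co-chaperones were all lower. Hsf1 was at 18.7 FPKM in Dnmt1-WT and 15.9 FPKM in Dnmt1-KO (ratio 0.85), and Hsf2, a second heat shock factor with roles in development, was at 7.69 and 4.39 FPKM (ratio 0.571). Because HSF1 is activated on the protein, these message levels do not measure its activity. Stip1 was at 63.5 and 48.2 FPKM (ratio 0.759), and Bag3 at 57.5 and 55.9 FPKM (ratio 0.973).

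Read across classes, 12 members are textbook HSF1 targets: Hspa1a, Hspa1b, Hspa8, Hsph1, Hsp90aa1, Hspb1, Hspd1, Hspe1, Dnaja1, Dnajb1, Bag3 and Stip1. Of these, 6 were higher and 6 lower in Dnmt1-KO (Hsp90aa1 turning to lower after division by the FPKM sum), with a median log2 ratio of 0.01, equal to that of all genes. Hspa1a, Hspa1b and Hspb1 reached a ratio of 2, Hsph1 was past 1.5-fold lower, and the other 8 were within 1.5-fold. All 12 were at 10 FPKM or more, where 5.2% of all genes reached a ratio of 2 and 10.3% were past 1.5-fold lower. Their sum of 1771 FPKM in Dnmt1-WT and 2143 FPKM in Dnmt1-KO compares with the 367.3 FPKM by which Hspb1 alone was higher.

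The 9 ER members, with BiP, GRP94 and their J-domain partners, were all within 1.5-fold (3 higher, 6 lower, median log2 ratio -0.14). Among all 16102 genes above 0 in both, 10889 were within 1.5-fold, 8106 higher and 7910 lower. Dnajb11, a BiP partner, was at 26.8 and 33.2 FPKM (ratio 1.24), Dnajc3, the P58IPK gene, at 16.6 and 15.5 FPKM (ratio 0.935) and Dnajb9, which dampens the IRE1 sensor, at 19.96 and 18.1 FPKM (ratio 0.908). Dnajc10, an ER disulfide reductase gene, was at 18.1 and 18.2 FPKM (log2 0.01, or -0.09 after division by the FPKM sum). Of the 10 mitochondrial members, 2 were higher and 8 lower, the higher ones being Hspe1 and Dnajc19, which encodes a part of the protein import motor and was at 38.7 and 46.9 FPKM (ratio 1.21). This set also holds Dnajc28, at the lowest ratio of all members (0.223), and the other 9 were within 1.5-fold.

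Genes that work with these chaperones but fall outside the symbol rule gave like values. The 24 other HSP70 and HSP90 co-chaperones had a median log2 ratio of -0.12. Of these 24, 8 were higher and 16 lower, beside 8106 and 7910 of all 16102 genes above 0 in both. The lowest was Cdc37l1 at 21.2 and 12.3 FPKM (ratio 0.582). The highest was Fkbp5, an HSP90-bound immunophilin gene induced by glucocorticoids, at 17.4 and 31.9 FPKM (ratio 1.83), while the related Fkbp4 was at 86.0 and 63.8 FPKM (ratio 0.741). Ahsa1, the activator of the HSP90 ATPase and itself heat-induced, was at 76.5 and 48.4 FPKM (ratio 0.632). The 8 CCT chaperonin genes, which fold actin and tubulin, were all within 1.5-fold (ratios 0.88 to 1.12). Among the 7054 genes at 10 FPKM or more in at least 1 library, 5540 were within 1.5-fold.

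The 18 genes of ER folding and the unfolded protein response had 9 higher and 9 lower and a median log2 ratio of 0.00, and Trib3, a low-level target of ATF4, was the only one past 1.5-fold at 0.55 and 3.14 FPKM (ratio 5.71). The other heat-induced genes, 13 of them above 0 in both, had a median log2 ratio of -0.01, with 3 past 1.5-fold higher, 2 past 1.5-fold lower (Ahsa1 and Cacybp, the latter at 25.6 and 16.5 FPKM) and 8 within 1.5-fold. This list holds the member Hspa1l, which is 1 of the 3 higher genes, and shares Ahsa1, Fkbp4, Chordc1 and Hspbp1 with the co-chaperone list. The polyubiquitin gene Ubb was at 917 and 912 FPKM (ratio 0.994) and Serpinh1, which encodes the collagen chaperone HSP47, at 421 and 407 FPKM (ratio 0.966). Hmox1, the heme oxygenase gene induced by oxidative stress and heme and expressed by macrophages, was at 1.6 and 8.99 FPKM (ratio 5.62), beside macrophage markers whose sum was 3.56 times as high in Dnmt1-KO.

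**Figure D4:**
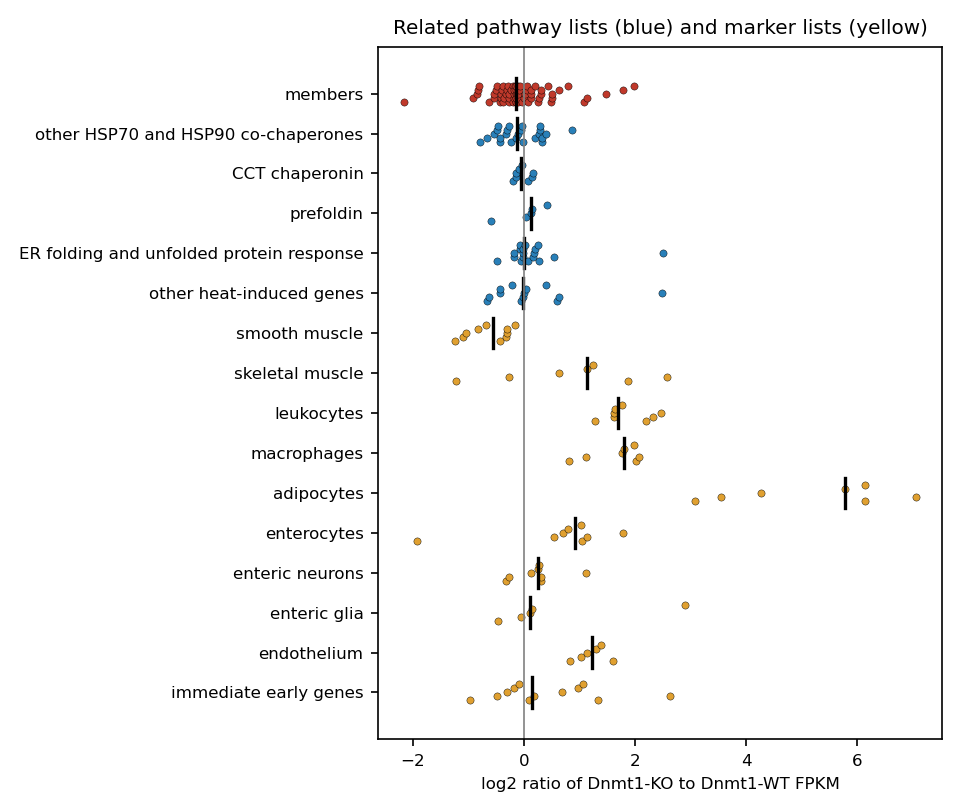
Log2 ratio of Dnmt1-KO to Dnmt1-WT FPKM for the chaperone genes (red), related pathway lists (blue) and lists of cell type markers and immediate early genes (yellow), 1 point per gene above 0 in both libraries, with each list's median as a black bar. The red and blue medians lie between -0.14 and 0.12, while those of leukocytes (1.70), macrophages (1.80) and adipocytes (5.78) lie to the right and smooth muscle (-0.55) to the left.

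Heat shock element letters were then searched in the 250 bases before each start, as GAANNTTC and TTCNNGAA (8 letters, each its own reverse complement) and as a 13-letter form in which GAA, TTC and GAA, or TTC, GAA and TTC, follow each other with 2 free letters between them (reverse complements of each other, each holding both short forms). RefSeq windows were matched for 59 of the 73 members, the others being Hspa8, Hspa9, Hspa13, Hsp90aa1, Hsp90ab1, Hspb2, Hsf1, Dnajc2, Dnajc5, Dnajc11, Dnajc12, Dnajc18, Dnajc22 and Dnajc30, and the shares below cover the matched members. The short letters were in 14 of the 59 (23.7%) and in 14.5% of all 27025 genes with a window. The long letters were in 3 members (5.08%), Hspd1, Hspe1 and Dnajb6, and in 0.514% of all genes. The matches of Hspd1 and Hspe1 are a single stretch read on opposite strands, which both shares of members count for each gene. A match is a description of the sequence and not a bound site.

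Members with a match had ratios on both sides of 1. Hspa1a and Hspa1b have 1 short match, 104 bases before the start, and Hspb1 has a pair at 117 and 97 bases, all 3 genes being more than 2-fold higher (Hspb1 just under it after division by the FPKM sum). Hsph1 and Dnaja4, which were lower at ratios of 0.554 and 0.566, have matches too, Hsph1 a single one that lies 54 and 33 bases before its annotated starts and Dnaja4 a pair at 90 and 52 bases. The 13-letter match in front of Dnajb6 (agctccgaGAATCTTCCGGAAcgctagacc, chr5:29735844-29735873, plus strand) went with a ratio of 0.794. All 30 of these bases lie in annotated exons of Dnajb6 and Gm5129, and the match of Hsph1 likewise lies in a stretch of which 26 of 30 bases are in its own annotated exon, so both are before some annotated starts and inside the gene for others. The capitals in the Hspe1 sequence are 89 bases before the start of Hspe1 and, read on the other strand, 144 bases before that of Hspd1, both counted from RefSeq starts, so a single stretch lies before a start of genes with ratios of 1.43 and 0.908. In the GENCODE annotation whose coordinates are given above, this stretch is inside Hspd1. Hspb7, at a ratio of 2.21, and Hspa2, at 0.533, had no match in this window.

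**Figure D5:**
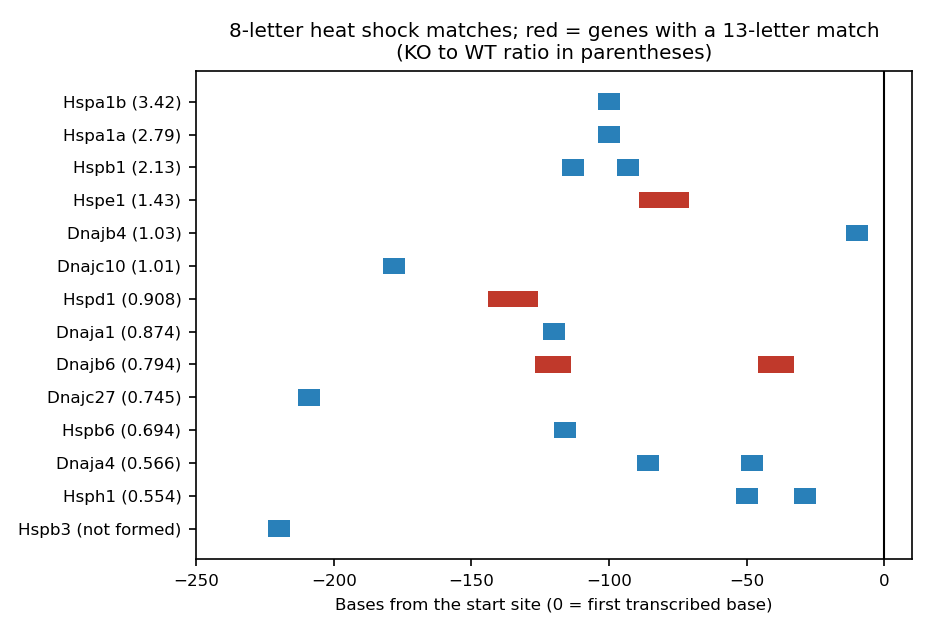
Position of the 8-letter heat shock matches before the start site (bases, with 0 at the start) for the 14 chaperone genes that have any, ordered by the KO to WT ratio given in parentheses, with red for genes that also have a 13-letter match (for Hsph1 and Dnajb6 the same match is drawn once for each of 2 annotated starts). Genes with matches run from a ratio of 3.42 (Hspa1b) to 0.554 (Hsph1), and no ratio was formed for Hspb3.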

How the data were processed

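The authors sequenced TruSeq RNA libraries of jejunal tunica muscularis and deposited FPKM and a number of transcript variants per gene symbol. The submitters' processing notes name TopHat 1.4.1, Cufflinks 2.0.2 and build mm10 (GRCm38). How Cufflinks divided reads shared by near-identical genes is not given in the sources used here. A deposited column with the authors' own fold change was not used. From the deposited FPKM, plain KO to WT ratios were computed with Python 3.11.15, numpy 2.4.6 and pandas 2.3.3, over genes above 0 in both libraries, with no pseudocount and no test, since each genotype had 1 library. The table gives no fragment counts and the library read totals that the study states, lower for Dnmt1-KO, were not used here, so no interval was computed, and values above 0 began at 0.03 FPKM. Shared sequence was the percent of 50-base words of each member's longest coding transcript (GENCODE M21) also found in transcripts of other genes. Ratio and counting code was checked on simulated data. Genes named were drawn from members with 10 FPKM in a library or a 1.5-fold difference at 1 FPKM or more, the heat shock, ER and mitochondrial subsets, and of other lists the extremes and the 2 most abundant. Not every gene that met these bars is named (Dnajc7 and Dnajc15, for example, are not described elsewhere). Dnajc22, Cryab, Cacybp and the neighbouring genes of the loci were added after their values were seen. Members and lists were chosen with earlier results of these data known. Protein sequences were not used here.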

Additional observations from a re-analysis of the deposited data

How the results depend on the processing

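The 7 alternatives were median centring, division by the FPKM sum or the upper quartile, genes with 1 FPKM or more in both or 5 FPKM or more in at least 1 library, and pseudocounts of 0.1 and 1. Over the 56 members with 10 FPKM in a library or a 1.5-fold difference at 1 FPKM or more, 327 of 388 values stayed within 0.1 of a log2 unit. The other 61 moved further and none of the called values changed sign. Most of the 61 come from division by the FPKM sum, which moves all 56 members alike just past 0.1. The rest were Dnajc12, Dnajc28, Hsf2 and Hspa1l with a pseudocount. Division by the FPKM sum shifted every log2 ratio down by 0.10. Dnajb4, Dnajc5, Dnajc9, Dnajc10 and Hsp90aa1, all within 0.1 of 0, changed sides of 0 under it. Under it the members' median was -0.24, HSP70 -0.25, HSP90 -0.24, small heat shock proteins -0.47, the mitochondrial chaperonin 0.09, J-domain class A -0.41, class B -0.22, class C -0.19, the HSF and co-chaperone group -0.42, HSF1 targets -0.09, ER members -0.24, mitochondrial members -0.25, other co-chaperones -0.22, CCT -0.16, prefoldin 0.02, ER folding -0.10 and other heat-induced genes -0.11. Hspb1 then had a log2 ratio of 0.99, just under 2-fold, and Hspa2 one of -1.01. Of the 70 members, 2 instead of 1 were at a ratio of 0.5 or less, beside 6.06% of all genes. Past 1.5-fold, 9 instead of 6 were lower, beside 16.6% of all genes, and 6 instead of 7 were higher, beside 17.2%. With 1 FPKM or more in both, 0 members were at 0.5 or less, beside 2.82% of all such genes. With 5 FPKM or more in at least 1 library the count was also 0, beside 2.93%. At this level 4 instead of 7 members were at 1.5 or more, beside 12.2% of all such genes. The class B median was 0.05 with 5 FPKM or more and -0.01 with a pseudocount of 1, and that of small heat shock proteins was -0.24 with a pseudocount of 1. Hspa1a, Hspa1b and Hspb7 stayed at or above 2-fold in all 3 scalings. No paired analysis was possible because each genotype has 1 library, and for the same reason no library could be left out. Values under 1 FPKM in both libraries (Dnajc22, Dnajb13, Hspb3, Hspb9 and Dnajb7, the last listed at 0 in both) carry little weight, since the reads behind them are not given in the table. The same holds for the Dnmt1-KO value of Dnajc28 (0.54 FPKM), whose log2 ratio of -2.16 became -1.15 with a pseudocount of 1.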

Other observations

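The number of transcript variants listed for each chaperone gene was the same in both libraries for 57 of the 73 members (78.1%, beside 68.7% of all genes). It was higher in Dnmt1-KO for 7 (9.59%, beside 16.3%), among them Hsf1 with 3 variants in Dnmt1-WT and 4 in Dnmt1-KO, and lower for 9 (12.3%, beside 15%), among them Dnajb2 with 5 and 3, Dnajb6 with 4 and 3, and Hspd1 with 3 and 2. The abundant members at a ratio of 2 or more, Hspa1a, Hspa1b, Hspb1 and Hspb7, were each listed with 1 variant in both libraries.

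The genes next to Hspb1 were close to equal. Ywhag, 18846 bases from Hspb1, was at 102 FPKM in Dnmt1-WT and 103 FPKM in Dnmt1-KO, and Srrm3, 13147 bases away on the other side, at 3.15 and 3.06 FPKM. Of the genes near Hspe1 (ratio 1.43), Coq10b, 15430 bases away, was at 16.8 and 18.2 FPKM (ratio 1.09), and Mob4 on its other side was at 32.0 and 22.3 FPKM (ratio 0.695), as far from equal as Hspe1 in the opposite direction.

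Prefoldin, the complex that delivers actin and tubulin to CCT, had 4 of its 5 listed genes higher in Dnmt1-KO and a median log2 ratio of 0.12, or 0.02 after division by the FPKM sum, where Pfdn4 (log2 0.04 before it) turned to lower. Pfdn5 was the most abundant at 220.5 and 239 FPKM, and Vbp1 was the 1 lower gene at 28.6 and 19.0 FPKM (ratio 0.665). Enteric neuron markers had a summed level of 464 and 575 FPKM, and enteric glia markers 67.1 and 96.5 FPKM. Of the 7 listed skeletal muscle markers, 5 were higher in Dnmt1-KO and 4 of these at least 2-fold, with a median log2 ratio of 1.14, while their sum was 106 and 65.5 FPKM because Ckm, by far the most abundant, was at 96.7 and 41.4 FPKM (ratio 0.428).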
